A study of Mus musculus with 24 samples.

Results

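Glul, Oat, Slc1a2, Rhbg, Lgr5, Tbx3, Lect2 and Rgn are 8 genes that Wnt signalling keeps on around the central vein of the normal liver. They were chosen by gene symbol in the array's platform annotation. The 8 genes had 18 probe sets that named no other gene, out of 45101 probe sets on the array, and all 18 passed the filter on low values. One further probe set of Slc1a2 also named a second gene and was not used. The 8 genes stand among 18193 named genes, of which 14086 could be tested.

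RNA was measured on 24 oligonucleotide arrays of B6C3F1 mouse liver, 6 in each of 4 groups. The groups are hepatoblastoma (BDCA_HB in the titles, HB here), the hepatocellular carcinoma beside it (BDCA_HCC, HCC here), non-tumour liver (BDCA_Normal) and the normal liver of mice given vehicle alone (Vehicle_Normal). The labels do not spell out BDCA. The tissue came from a bioassay in which male and female mice were gavaged with Ginkgo biloba extract in corn oil on 5 days of each week over 2 years, at 0, 200, 600 or 2000 mg/kg. The protocols speak of normal liver and spontaneous carcinoma from vehicle controls and of carcinoma from treated mice, and they give no dose, sex, age or animal for any sample and no account of how hepatoblastoma was collected. The design compares the tumours with each other, with the adjacent liver and with the control liver. Nothing in the labels says whether replicates are separate animals. The p-values therefore reflect only how these samples vary, and that variation may be technical.

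In the liver lobule, endothelial cells of the central vein release Wnt ligands, and R-spondins strengthen the signal through the receptors Lgr4 and Lgr5. In the hepatocytes that receive it, beta-catenin enters the nucleus and acts with TCF/LEF factors on target genes. The innermost ring of hepatocytes then makes glutamine from ammonia, while urea synthesis and gluconeogenesis lie towards the portal vein. Several of the 8 genes, Glul first among them, are used as markers of beta-catenin activity in liver tumours.

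Promoter sequences are shown for the 2 of the 8 genes whose window held a TCF/LEF-type motif, CTTTGAT, searched on both strands as CTTTGAT and ATCAAAG, which do not overlap another motif. RefSeq (GRCm38.p6) gave a window of 300 bases, from 250 before to 50 after the start of the gene, for Glul, Oat, Slc1a2 and Lect2. Rhbg, Lgr5, Tbx3 and Rgn had no window and were not searched. The Slc1a2 window is chr2:102706188-102706487 on the plus strand, and the motif begins 207 bases before the start. The Lect2 window is chr13:56548489-56548788 on the minus strand, and the motif begins 32 bases before the start. The capitals mark the match.
Slc1a2: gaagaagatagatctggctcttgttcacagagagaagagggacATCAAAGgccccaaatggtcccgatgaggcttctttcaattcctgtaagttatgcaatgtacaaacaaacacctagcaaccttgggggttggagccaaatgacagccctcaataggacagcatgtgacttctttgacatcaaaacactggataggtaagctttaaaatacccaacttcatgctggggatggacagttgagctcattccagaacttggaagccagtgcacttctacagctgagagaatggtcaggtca
Lect2: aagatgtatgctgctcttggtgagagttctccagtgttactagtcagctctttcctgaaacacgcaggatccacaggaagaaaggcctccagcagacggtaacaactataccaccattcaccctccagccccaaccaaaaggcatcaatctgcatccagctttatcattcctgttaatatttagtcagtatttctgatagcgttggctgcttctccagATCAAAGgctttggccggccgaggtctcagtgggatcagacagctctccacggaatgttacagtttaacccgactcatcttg
Of 32851 windows in the same table, 1225 held a match (3.73%). The windows of Glul and Oat did not hold these letters. A match describes the letters of the window and was not measured as a bound site.

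The 8 genes moved in opposite directions in hepatoblastoma. Against Vehicle_Normal, 6 of the 8 genes passed the threshold of an adjusted p of 0.05 in limma. Lgr5 and Tbx3 rose, and Glul, Slc1a2, Lect2 and Rgn fell. Over all tested genes 60.3% passed in this comparison (37.2% higher and 23.1% lower), so the share of members called, 6 of 8, has to be read against a wide background. The median log2 difference of the 8 genes was -1.08, against 0.34 over all tested genes. Against HCC, 7 of 8 passed (50.5% of all genes), with 2 higher (28.9%) and 5 lower (21.6%), and Oat was the gene that did not pass. Against BDCA_Normal, 7 of 8 passed (56.5% of all genes), again with 2 higher (34.1%) and 5 lower (22.4%), and Glul was the gene that did not pass. These comparisons share the HB samples, and those of HB and HCC with Vehicle_Normal share their controls, so the counts are not independent of each other.

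The other 3 comparisons called none of the 8 genes. HCC against Vehicle_Normal gave 0 calls by limma (7.23% of all genes were called), BDCA_Normal against Vehicle_Normal gave 0 (0.0994%) and HCC against BDCA_Normal gave 0 (1.82%). In each of these, 0 of the 8 genes had an unadjusted p under 0.05, and each alternative fit also called 0. This does not show that the groups were alike: HCC and BDCA_Normal arrays lay far apart from one another in these genes, as described further on.

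**Figure D1:**
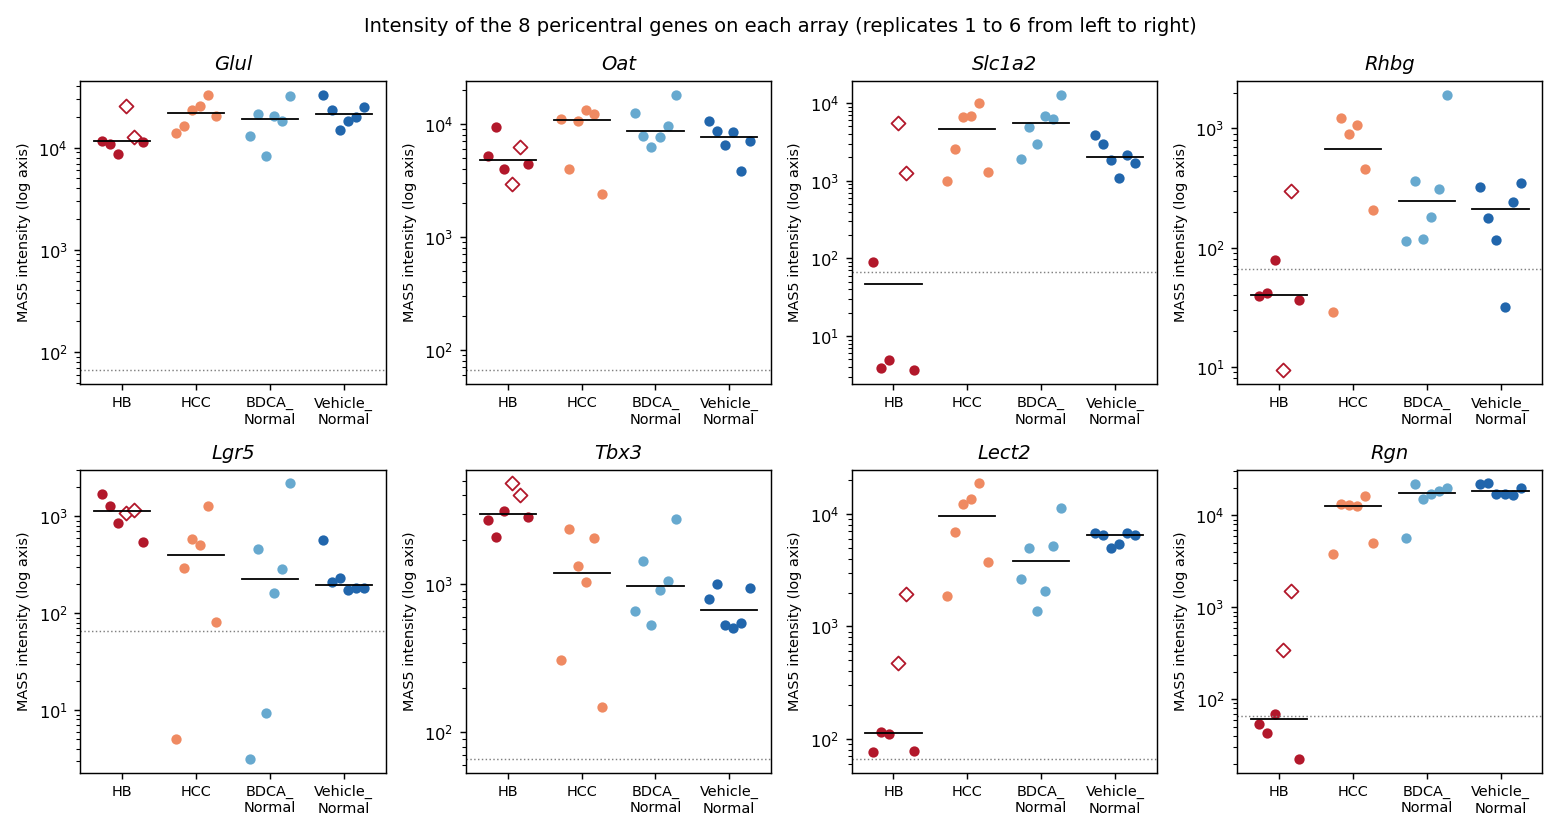
Intensity of each of the 8 genes on each of the 24 arrays (vertical log axis, MAS5 intensity), with replicates 1 to 6 from left to right in each group. Open diamonds are HB replicates 4 and 5, the black line is the group median and the dotted line is the filter value of 66.3. Tbx3 lay above all Vehicle_Normal arrays in every HB array, while Lect2 and Rgn lay below all of them.

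Lgr5 encodes the receptor for R-spondins and is itself switched on by Wnt signalling. In HB replicates 1 to 6 it read 1715, 1271, 857, 1097, 1179 and 538. In Vehicle_Normal the arrays read 576, 211, 230.3, 176, 182 and 182. Only HB replicate 6 lay below the highest Vehicle_Normal array, replicate 1. Lgr5 was 4.24-fold higher in HB than in Vehicle_Normal (log2 difference 2.08 ± 0.90, SE, adjusted p = 0.0472, n = 6 and 6, limma). It was 4.96-fold higher in HB than in HCC (2.31 ± 0.94, adjusted p = 0.0425, n = 6 and 5, limma) and 6.09-fold higher than in BDCA_Normal (2.61 ± 0.90, adjusted p = 0.0156, n = 6 and 6, limma).

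The Lgr5 calls lay near the threshold. Against Vehicle_Normal the call was lost without any one of HB replicates 1 to 5 or Vehicle_Normal replicates 2 to 6, with log2 differences of 1.94 to 2.14 and adjusted p from 0.0602 to 0.0840. It was also lost with each array centred on its median (1.72, adjusted p = 0.109), with quantile normalization (1.74, adjusted p = 0.105) and with a constant of 1 in place of 16 added before the logarithm (2.16, adjusted p = 0.116). Against HCC it was lost without any one of HB replicates 1 to 5 (2.17 to 2.37, adjusted p 0.0553 to 0.0745), without HCC replicate 1 (1.48, adjusted p = 0.174) and without HCC replicate 6 (2.02, adjusted p = 0.1004). It was lost there as well with median centring (2.05, adjusted p = 0.0764), quantile normalization (2.20, adjusted p = 0.0562), a constant of 1 (2.72, adjusted p = 0.0688) and without HB replicates 4 and 5 together (2.25, adjusted p = 0.0837). Against BDCA_Normal it was lost without BDCA_Normal replicate 1 (1.97, adjusted p = 0.0528) or 3 (2.05, adjusted p = 0.0530). A second and dimmer Lgr5 probe set, 1444519_at, was called higher in HB in all 3 comparisons, by 2.01 ± 0.48 against Vehicle_Normal, 1.58 ± 0.51 against HCC and 1.83 ± 0.48 against BDCA_Normal on the log2 scale. Its medians in those groups (32.3, 62.1 and 31.8) lay below the filter value, so these sizes depended on the added constant.

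HCC and BDCA_Normal spread more widely in Lgr5. HCC replicates 1 to 6 read 5.06, 292, 581, 502, 1272 and 80.3, and BDCA_Normal replicates 1 to 6 read 3.14, 465, 9.42, 163, 288 and 2189. HCC replicates 3 and 5 thus lay in the HB range and BDCA_Normal replicate 6 above it, while HCC replicate 1 and BDCA_Normal replicates 1 and 3 lay below the filter value of 66.3. The log2 difference of HCC from Vehicle_Normal was -0.23 ± 0.94 (adjusted p = 0.925).

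Tbx3 encodes a T-box transcription factor and a Wnt target of the pericentral zone. HB replicates 1 to 6 read 2739, 2080.0, 3117, 4797, 4012 and 2868, and Vehicle_Normal read 794, 1006, 531, 507, 548 and 948. The lowest HB array lay above the highest Vehicle_Normal array, as in 21.5% of all tested genes. Tbx3 was 4.46-fold higher in HB than in Vehicle_Normal (2.16 ± 0.49, adjusted p = 4.88e-04, n = 6 and 6, limma). It was 4.00-fold higher than in HCC (2.00 ± 0.51, adjusted p = 0.00207) and 2.98-fold higher than in BDCA_Normal (1.57 ± 0.49, adjusted p = 0.00793).

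HCC replicates 1 to 6 read 309.9, 2355, 1326, 1043, 2040.2 and 149 for Tbx3, and BDCA_Normal read 659, 1436, 531, 909, 1046 and 2746. HCC replicate 2 and BDCA_Normal replicate 6 lay within the HB range. Of the 4 other Tbx3 probe sets, all were called higher in HB than in Vehicle_Normal, by 1.73 to 2.43 on the log2 scale. One of them, 1444594_at, was not called against HCC (1.20 ± 0.67, adjusted p = 0.139) or BDCA_Normal (1.17 ± 0.64, adjusted p = 0.123). The Vehicle_Normal medians of 1444594_at (10.4) and 1445757_at (53.5) lay below the filter value, so their sizes depended on the added constant. The Tbx3 calls of HB held in each single-array omission and each scaling that was run.

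Glul encodes glutamine synthetase, which joins ammonia to glutamate. HB replicates 1 to 6 read 11722, 10854, 8764, 25343, 12662 and 11373. Vehicle_Normal ranged from 15051 to 32975 with a median of 21627, and HCC from 13822 to 32566 with a median of 21964. HB replicate 4 lay within both of those ranges, and the other 5 HB arrays lay below every Vehicle_Normal and HCC array. Glul was 1.72-fold lower in HB than in Vehicle_Normal (log2 difference -0.78 ± 0.28, adjusted p = 0.0179, limma) and 1.63-fold lower than in HCC (-0.70 ± 0.29, adjusted p = 0.0473, limma).

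The Glul difference depended on scaling. All tested genes had a median log2 difference of 0.34 between HB and Vehicle_Normal, which median centring brought to -0.03 and quantile normalization to -0.01. Glul then stood at -1.15 (adjusted p = 0.00226) and -0.02 (adjusted p = 0.939). Its dimmer probe set, 1426235_a_at, was not called against Vehicle_Normal (-0.47 ± 0.55, adjusted p = 0.475) or HCC (-0.54 ± 0.58, adjusted p = 0.449). By that probe set HB ranged from 2888 to 9667, Vehicle_Normal from 4021 to 9406 and HCC from 1408 to 22234, so the groups overlapped more. With the brighter probe set, the call against Vehicle_Normal was lost without HB replicate 3 (-0.68, adjusted p = 0.0502) and without Vehicle_Normal replicate 1 (-0.66, adjusted p = 0.0508). Against HCC it was lost without any one of HB replicates 1, 2, 3, 5 and 6 or HCC replicates 4, 5 and 6 (-0.71 to -0.54, adjusted p 0.0512 to 0.146). It was also lost there with quantile normalization (-0.17, adjusted p = 0.557) and with a constant of 1 added (-0.71, adjusted p = 0.0505), and median centring gave -0.97 (adjusted p = 0.0138). Against BDCA_Normal, where Glul was not called (-0.46 ± 0.28, adjusted p = 0.166), it was called without HB replicate 4 (-0.66, adjusted p = 0.0377) or BDCA_Normal replicate 3 (-0.67, adjusted p = 0.0354). Median centring gave -0.78 (adjusted p = 0.0323) there and quantile normalization gave 0.16 (adjusted p = 0.560).

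Slc1a2 encodes GLT-1, a transporter that brings glutamate into the cell, and it separated the HB arrays from each other. HB replicates 1 to 6 read 88.5, 3.93, 4.97, 5448, 1249 and 3.65. Vehicle_Normal ranged from 1084 to 3844 with a median of 2009. HB replicates 4 and 5 therefore lay within or above the control range, and the other 4 lay far below it. The fitted difference from Vehicle_Normal was -3.97 ± 1.01 (15.7-fold lower, adjusted p = 0.00152, limma), which is a mean over unlike samples. Without HB replicates 4 and 5 it was -6.11 (adjusted p = 3.68e-09).

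Slc1a2 was 22.03-fold lower in HB than in HCC (-4.46 ± 1.06, adjusted p = 0.00108) and 36.9-fold lower than in BDCA_Normal (-5.21 ± 1.01, adjusted p = 1.02e-04). The HB median of 46.7 lay below the filter value, so the size depended on the constant of 16 added before the logarithm: against Vehicle_Normal it was -4.98 with 1 and -3.02 with 64. Of the 4 other probe sets, 3 were called lower in each of the comparisons of HB, with log2 differences of -4.29 to -2.94. The fourth, 1433094_at, was dim on every array (at most 436) and read 0.16 ± 0.56 against Vehicle_Normal (adjusted p = 0.824). HCC read 999.8, 2545, 6645, 6782, 10059 and 1282, and BDCA_Normal read 1890.1, 4841, 2976, 6876, 6154 and 12742. Neither passed against Vehicle_Normal (0.49 ± 1.06 and 1.24 ± 1.01, adjusted p = 0.842 and 0.716).

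Rhbg encodes an ammonium transporter of the Rhesus family. HB replicates 1 to 6 read 39.2, 41.3, 79.5, 9.40, 301 and 36.2. Vehicle_Normal read 325, 179, 116, 31.8, 243 and 350.1, and HCC read 28.6, 1216, 889.8, 1075, 456 and 205. HB replicate 5 lay among the controls, replicate 4 lay below all of them and the other 4 HB arrays lay above Vehicle_Normal replicate 4 only. The HB median of 40.2 was below the filter value. Rhbg was 5.02-fold lower in HB than in HCC (-2.33 ± 0.77, adjusted p = 0.0145, limma) and 4.31-fold lower than in BDCA_Normal (-2.11 ± 0.74, adjusted p = 0.0175, limma).

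Against Vehicle_Normal, Rhbg did not pass (-1.38 ± 0.74, adjusted p = 0.109). It passed without HB replicate 5 (-1.81, adjusted p = 0.0367) or Vehicle_Normal replicate 4 (-1.77, adjusted p = 0.0449), and with median centring (-1.75, adjusted p = 0.0458) or quantile normalization (-1.86, adjusted p = 0.0364). The call against HCC was lost without HCC replicate 2 (-1.88, adjusted p = 0.0547), and the call against BDCA_Normal was lost without BDCA_Normal replicate 6 (-1.58, adjusted p = 0.0623).

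Oat encodes ornithine aminotransferase, which turns ornithine into a precursor of glutamate. Its levels separated the groups little. HB ranged from 2932 to 9349 (median 4797), HCC from 2398 to 13246 (median 10825), BDCA_Normal from 6177 to 18043 (median 8675) and Vehicle_Normal from 3845 to 10505 (median 7701). Every pair of groups overlapped. Oat passed in 1 of 6 comparisons, HB against BDCA_Normal (-0.94 ± 0.36, 1.92-fold lower, adjusted p = 0.0293, limma). That call was lost without any one of HB replicates 3, 4 and 6 or BDCA_Normal replicates 1 and 6 (-0.90 to -0.76, adjusted p 0.0520 to 0.0842), and under quantile normalization (-0.40, adjusted p = 0.350). Against Vehicle_Normal the difference was -0.51 ± 0.36 (adjusted p = 0.224), and it was 0.10 under quantile normalization.

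Lect2 encodes a secreted hepatocyte protein first known as a chemotactic factor. HB replicates 1 to 6 read 75.6, 115, 110.4, 472, 1957 and 78.3. Vehicle_Normal read 6755, 6546, 4954, 5358, 6813 and 6483, with an SD of 0.19 on the log2 scale, as for Rgn. Every HB array lay below every Vehicle_Normal array, as in 16.1% of all tested genes. Lect2 was 27.0-fold lower in HB than in Vehicle_Normal (-4.75 ± 0.63, adjusted p = 4.44e-07, n = 6 and 6, limma). It was 28.7-fold lower than in HCC (-4.84 ± 0.66, adjusted p = 1.05e-06) and 15.9-fold lower than in BDCA_Normal (-3.99 ± 0.63, adjusted p = 6.48e-06).

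HCC read 1855, 6853, 12247, 13632, 18699 and 3729.8 for Lect2, so replicates 2 to 5 lay above the whole Vehicle_Normal range and replicates 1 and 6 below it. BDCA_Normal read 2646, 4960.2, 1375, 2063, 5186 and 11257. HB replicate 5 overlapped the lowest HCC and BDCA_Normal arrays. The difference between HCC and Vehicle_Normal was 0.09 ± 0.66 (adjusted p = 0.962), a mean of arrays on either side of the controls.

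Rgn encodes regucalcin, a calcium-binding gluconolactonase of hepatocytes, and had the largest fall of the 8 genes. HB replicates 1 to 6 read 53.7, 43.0, 68.6, 343, 1500.2 and 22.5, and Vehicle_Normal ranged from 16812 to 22195 with a median of 18312. HB replicates 4 and 5 were again the highest HB arrays, and they still lay below every array of the other groups. Rgn was 136-fold lower in HB than in Vehicle_Normal (-7.09 ± 0.60, adjusted p = 2.00e-10, n = 6 and 6, limma). It was 63.4-fold lower than in HCC (-5.99 ± 0.63, adjusted p = 1.57e-08) and 108-fold lower than in BDCA_Normal (-6.76 ± 0.60, adjusted p = 5.21e-10). The HB median of 61.1 lay below the filter value, and the difference from Vehicle_Normal was -7.39 with a constant of 1 and -6.48 with 64. Rgn was the only one of the 8 genes whose HB arrays overlapped no other group. All HB arrays lay below all HCC arrays in 11.9% of tested genes, and below all BDCA_Normal arrays in 13.4%.

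HCC read 3829, 13324, 12976, 12500.5, 16273 and 5022 for Rgn. All of these lay below the lowest Vehicle_Normal array, as in 2.38% of all tested genes, but the difference was not called (-1.10 ± 0.63, adjusted p = 0.319). BDCA_Normal read 5657 in replicate 1 and 15093 to 22050 in the others.

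**Figure D2:**
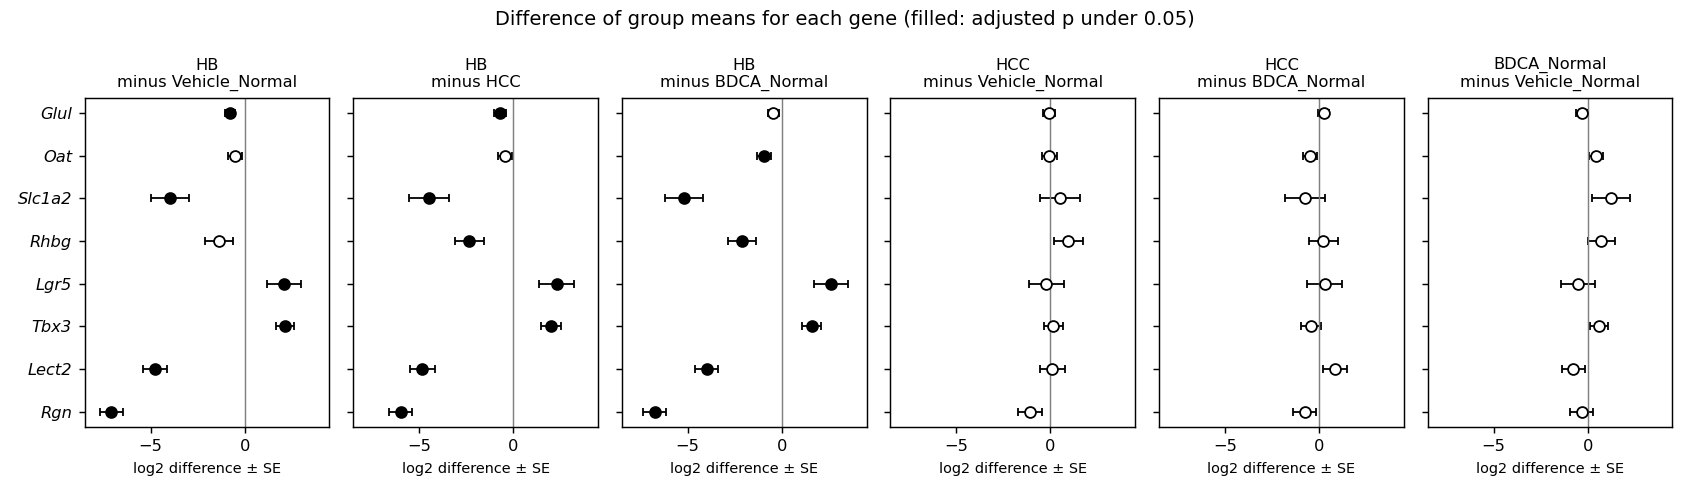
Log2 difference of group means for each of the 8 genes in the 6 comparisons (points) with the moderated standard error (bars). Filled points passed an adjusted p of 0.05 and open points did not. In the HB panels Lgr5 and Tbx3 lie right of zero and Slc1a2, Lect2 and Rgn far left, while no point is filled in the 3 panels without HB.

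The order of the group levels, taken from the means of the log2 values, differed by gene. Lgr5 ran from HB down through Vehicle_Normal and HCC to BDCA_Normal, and among these neighbours the step from HB to Vehicle_Normal passed the threshold. Tbx3 ran from HB through BDCA_Normal and HCC to Vehicle_Normal, and the step from HB to BDCA_Normal passed. HB was lowest in the other 6 genes. Slc1a2 ran from BDCA_Normal through HCC and Vehicle_Normal to HB, Lect2 from HCC through Vehicle_Normal and BDCA_Normal to HB, and Rgn from Vehicle_Normal through BDCA_Normal and HCC to HB. In each of these 3 genes the last step, to HB, passed. Glul ran from Vehicle_Normal through HCC and BDCA_Normal to HB, Oat from BDCA_Normal through Vehicle_Normal and HCC to HB, and Rhbg from HCC through BDCA_Normal and Vehicle_Normal to HB. No step between neighbours passed the threshold in these 3 genes.

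Spread within a group was wide in these genes. The median SD of the 8 genes on the log2 scale was 0.47 in Vehicle_Normal, close to the 0.48 of all tested genes there. It was 1.39 in HCC, where all tested genes had 0.56. In HB it was 0.90 and in BDCA_Normal 0.90, against 0.47 and 0.52.

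The HCC arrays differed from each other across the 8 genes together. HCC replicate 5 lay above the whole Vehicle_Normal range in 6 of the 8 genes, and replicates 3 and 4, taken as 1 sample, did so in 5. HCC replicate 2 did so in Rhbg, Tbx3 and Lect2. HCC replicate 1 lay below that range in 7 genes and above it in Oat alone. HCC replicate 6 lay below it in 5 genes and above it in 0. Over all tested genes, the share of values above that range was 29.0%, 22.7%, 19.8%, 22.8% and 24.7% in HCC replicate 1, 2, 3 with 4, 5 and 6, and the share below it was 18.1%, 19.5%, 14.7%, 25.9% and 16.1%.

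Axin2, a feedback inhibitor that serves as a general readout of Wnt signalling, read 276, 3466, 2111, 2089, 1842 and 438 in HCC replicates 1 to 6. In Vehicle_Normal it ranged from 253 to 607, and in HB from 7883 to 9511. HCC replicates 2 to 5 thus lay above the control range and replicates 1 and 6 within it. Of the 20 other pericentral genes tested, Axin2 included, 0 lay above the Vehicle_Normal range and 12 below it in HCC replicate 1, and 0 above and 15 below in replicate 6. In replicates 2 to 5 it was 4 to 7 above and 6 to 8 below. Alb, the albumin gene, lay between 22998 and 38655 in all 6 HCC arrays and between 32099 and 51640 in Vehicle_Normal. HCC replicates 2, 3, 4 and 6 lay below that control range of Alb, and replicates 1 and 5 within it.

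The BDCA_Normal arrays also differed. Replicate 6 lay above the Vehicle_Normal range in Oat, Slc1a2, Rhbg, Lgr5, Tbx3 and Lect2. Over all tested genes 14.4% lay above and 20.1% below in that array. Replicates 1 and 3 lay below the range in Glul, Lgr5, Lect2 and Rgn. Over all tested genes 21.4% lay below it in replicate 1 and 16.9% in replicate 3, with 24.2% and 15.2% above. Axin2 read 1509 in replicate 6 and 299.8 to 712 in the others. These positions describe single samples and were not tested. Over all tested genes, the deviations of BDCA_Normal replicate 1 and HCC replicate 1 from their group means correlated (r = 0.50). The labels do not say whether these arrays share an animal.

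**Figure D3:**
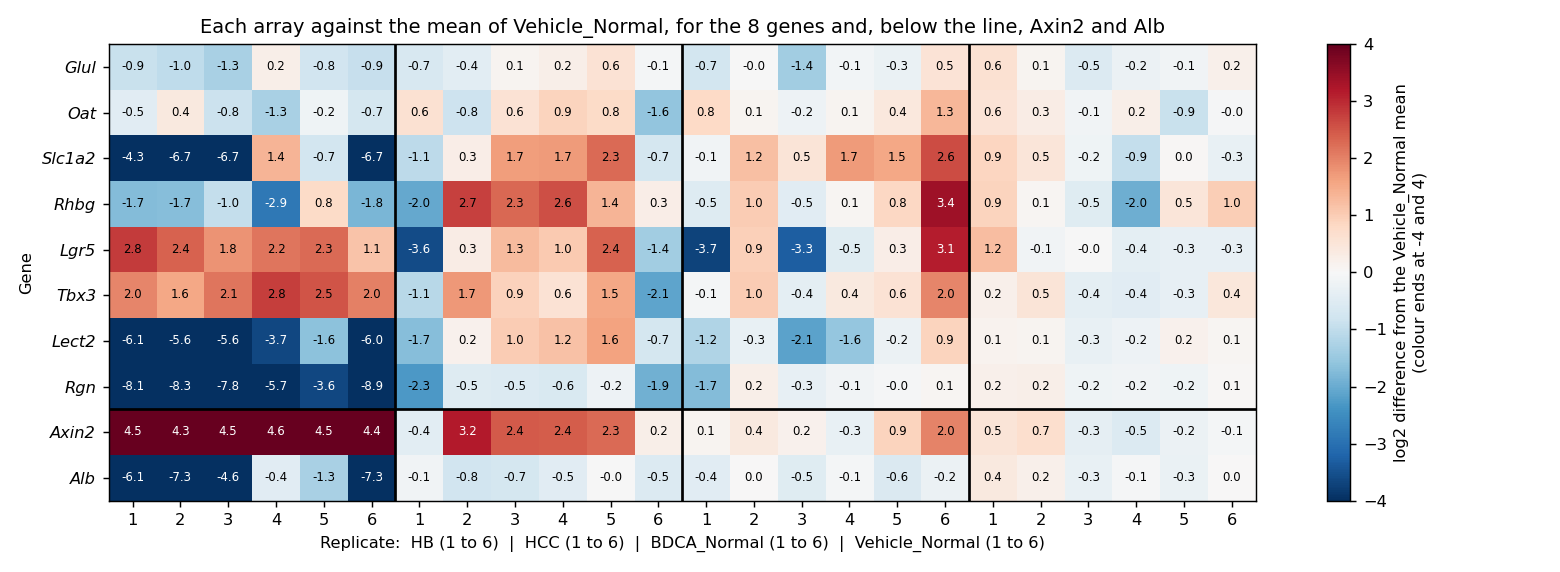
Log2 difference of each of the 24 arrays from the Vehicle_Normal mean for the 8 genes and, below the line, Axin2 and Alb (colour ends at -4 and 4, columns are replicates 1 to 6 of each group). In HB replicates 4 and 5 Alb and Slc1a2 lie nearer the controls than in the other HB arrays, while Axin2 is similarly high in all. Alb still lies below every Vehicle_Normal array in both replicates, and Slc1a2 lies above every one in replicate 4. HCC replicates 1 and 6 are mostly blue and replicates 2 to 5 mostly red.

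Other genes of the pericentral zone fell more uniformly in HB than the 8 genes did. Of 22 listed, 20 were tested. Against Vehicle_Normal, 19 fell and 1 rose (23.1% and 37.2% of all tested genes), with a median log2 difference of -6.15. The one that rose was Axin2. Pon1, the paraoxonase carried on HDL, was 146-fold lower (-7.19 ± 0.51, adjusted p = 6.30e-12, limma). Nr1i3, the xenobiotic receptor CAR, stood at -5.73 ± 0.28 (adjusted p = 1.00e-14), and the cytochromes Cyp2c50 and Cyp2c37 at -7.44 ± 0.40 and -7.06 ± 0.53. The HB medians of these 3 genes (60.6, 58.5 and 61.9), and of 11 of the 20 in all, lay below the filter value, so the sizes depended on the added constant. With 1 and with 64 the differences were -6.07 and -5.01 for Nr1i3, -7.73 and -6.82 for Cyp2c50, and -7.44 and -6.36 for Cyp2c37.

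Periportal genes fell as well. Of 17 listed, 15 were tested, and 14 fell and 0 rose (23.1% and 37.2% of all tested genes), with a median of -6.69. Cps1, which makes carbamoyl phosphate for the urea cycle, had a log2 difference of -8.97 ± 0.69. Otc, the next enzyme of that cycle, stood at -8.72 ± 0.54 and Arg1, its last, at -7.08 ± 0.55. Pck1, an enzyme of gluconeogenesis, stood at -7.86 ± 0.47. The HB median lay below the filter value in 10 of the 15, Cps1, Otc and Pck1 among them. The difference of Cps1 was -10.29 with a constant of 1 and -7.70 with 64, and that of Otc was -9.73 and -7.48. The lists were described by counts, and no test set one zone against the other.

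In HCC against Vehicle_Normal the same lists had fewer calls. Over all 14086 tested genes, 615 were called higher and 404 lower there, with a median of 0.08. Of the 20 pericentral genes, 3 fell (Cyp2c37, Cyp2c50 and Cyp2c54) and 1 rose (Axin2, by 1.53 ± 0.47, adjusted p = 0.0457), with a median of -0.60. Of the 15 periportal genes, 7 fell and 1 rose, with a median of -1.44. The periportal genes that fell included Otc (by 2.73 ± 0.56, adjusted p = 0.00369), while Cps1, Arg1 and Pck1 did not pass (-1.29 ± 0.73, -1.11 ± 0.58 and -1.44 ± 0.50). In BDCA_Normal against Vehicle_Normal, 0 genes of either list passed in limma.

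Wnt ligands, receptors and regulators were mixed in HB. Of 20 listed, 18 were tested, and 9 rose and 3 fell against Vehicle_Normal, with a median of 0.95. Over all tested genes 37.2% were called higher and 23.1% lower, with a median of 0.34. Nkd1 and Notum, which dampen Wnt signalling and are induced by it, rose by 4.55 ± 0.30 (23.4-fold, adjusted p = 2.23e-12) and 4.32 ± 0.40 (19.98-fold, adjusted p = 9.81e-10). Lef1, a partner of beta-catenin on DNA, rose by 6.93 ± 0.61 (adjusted p = 4.52e-10). Its Vehicle_Normal arrays read 5.60 to 48.6, all below the filter value, and the rise was 7.87 with a constant of 1 and 5.72 with 64. Lrp5, a Wnt co-receptor, fell by 1.86 ± 0.31 (3.63-fold, adjusted p = 1.33e-05). In HCC, 4 of the 18 rose and 0 fell, where 615 of all 14086 tested genes were called higher and 404 lower. Lef1 was among those that rose (2.54 ± 0.64, adjusted p = 0.0166). Nkd1 and Notum did not pass (0.73 ± 0.32 and 0.68 ± 0.42, adjusted p = 0.170 and 0.360).

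Genes that handle glutamate, glutamine and ammonia, the substrates of Glul, Slc1a2 and Rhbg, went both ways in HB. Of 19 listed, 12 were tested, and 4 rose and 5 fell, with a median of -0.67. These counts have to be read against the 37.2% called higher and 23.1% called lower over all tested genes. The glutamine transporter Slc38a3 fell by 5.98 ± 0.33 (63.2-fold, adjusted p = 7.54e-14). Prodh, which degrades proline, fell by 4.25 ± 0.44, and the mitochondrial enzymes Glud1 and Got2 had log2 differences of -2.48 ± 0.18 and -2.45 ± 0.16. Those that rose were Asns, which makes asparagine from glutamine (5.85 ± 0.67, adjusted p = 4.09e-08), the amino acid transporters Slc1a5 (2.34 ± 0.52, adjusted p = 3.88e-04) and Slc1a4 (2.06 ± 0.56, adjusted p = 0.00278), and Aldh18a1, an enzyme of proline synthesis (1.51 ± 0.65, adjusted p = 0.0456). The Vehicle_Normal median of Asns, 19.5, lay below the filter value. In HCC 3 rose (Asns, Slc1a4 and Slc1a5) and 1 fell, which was Slc38a3 (-1.19 ± 0.35, adjusted p = 0.0372). Over all 14086 tested genes, 615 were called higher and 404 lower in HCC.

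**Figure D4:**
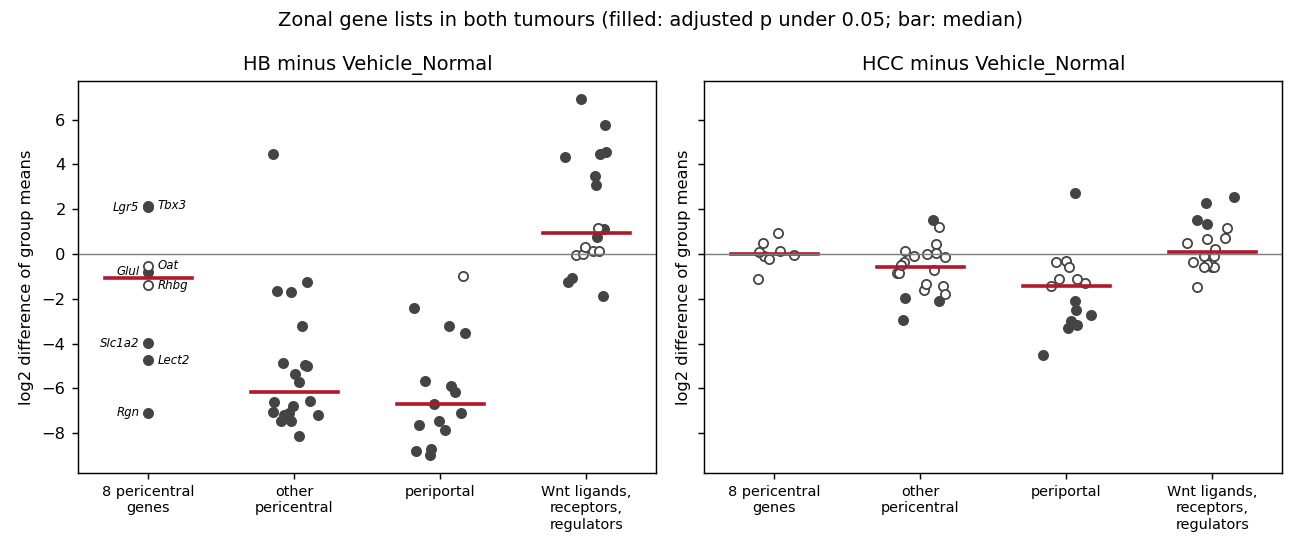
Log2 difference from Vehicle_Normal of the 8 genes, 20 other pericentral genes, 15 periportal genes and 18 Wnt ligands, receptors and regulators, in HB (left) and HCC (right), with Axin2 in 2 of the lists. Filled points passed an adjusted p of 0.05 and red bars are list medians. In HB the median of the 8 genes (-1.08) lies well above those of the other pericentral (-6.15) and periportal (-6.69) genes.

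For each of the 8 genes, the closest profiles were those with the smallest root mean square difference on the log2 scale over the 23 samples, after centring. Rgn lay closest to Akr1c14 (0.48), Pon1 (0.51) and Cyp2c68 (0.53), against an SD of its own of 3.20. Glul lay closest to Sec61a1 (0.30), Ttc13 (0.31) and Grina (0.32), with an SD of 0.58. Lect2 was followed by Rarres2 (0.79), 9030619P08Rik (0.80) and Akr1c12 (0.85), Tbx3 by Csrp2 (0.68), Acin1 (0.70) and Erbb2 (0.71), and Oat by Mpdu1 (0.48), Ppp2r2d (0.48) and Egln2 (0.51). Slc1a2 was followed by Igfbp1 (1.01), Apoa1 (1.07) and Nrn1 (1.12), and Rhbg by Them6 (0.97), Avpr1a (1.08) and Plcxd2 (1.09). Lgr5 lay closest to Armcx2 (1.18), Iqce (1.20) and Tbx3 (1.23), the one case in which a member was among the 3 closest to another.

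Measures of the arrays moved with the groups. Each array had been scaled to a trimmed mean of 500, while the median intensity was 144 to 202 in HB and 75.8 to 145 in the other groups. Gapdh signal at the 3' end over that at the 5' end, a sign of RNA quality, was on the log2 scale 1.08 to 1.66 in HB and 1.67 to 2.11 in Vehicle_Normal. It was 0.88 to 2.15 in HCC and 1.22 to 2.37 in BDCA_Normal, which overlapped both. Xist, which is transcribed from an inactive X, read 10287 to 12673 on 5 arrays, of which 4 were Vehicle_Normal and 1 was BDCA_Normal (replicate 6). It read at most 252 on the other 19 arrays, which include all of HB and HCC. Without those 5 arrays, which leaves 2 Vehicle_Normal arrays, 3 of the 8 genes were called in HB against Vehicle_Normal, and 45.4% of all tested genes in place of 60.3%. Tbx3 (2.13), Lect2 (-4.65) and Rgn (-7.03) passed. Slc1a2 (-3.74, adjusted p = 0.0585), Lgr5 (2.26, adjusted p = 0.131) and Glul (-0.62, adjusted p = 0.202) did not. In HCC against Vehicle_Normal, leaving out those 5 arrays took the share of all tested genes called from 7.23% to 1.37%. The HCC calls in the gene lists rest on that comparison, and the part of sex in them was not tested. HCC replicates 3 and 4 were far closer to each other than other pairs within a group (r = 0.981, against at most 0.957), so they differed by less than other replicates and were counted as 1 sample.

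Cell type markers differed too. Their counts in HB against Vehicle_Normal stand beside 37.2% of all tested genes called higher and 23.1% called lower. All 8 tested hepatocyte markers fell in HB, and their summed intensity was 743 to 72347 in HB and 189583 to 280621 in Vehicle_Normal. HB replicates 4 and 5, the highest HB arrays in Slc1a2, Lect2 and Rgn, had Alb readings of 28758 and 15782, whereas Alb was 229 to 1630.3 on the remaining HB arrays. All 9 macrophage markers fell, with sums of 793 to 1862 in HB and 9018 to 36059 in Vehicle_Normal, and 6 of them had an HB median below the filter value. All 4 tested cholangiocyte markers rose (sums 1031 to 3883 and 105 to 564). Of 10 endothelial markers 2 rose and 7 fell, of 9 stellate markers 0 rose and 5 fell, and of 6 tested lymphocyte markers 1 rose and 4 fell. The 1 tested erythroid marker fell. In HCC the summed hepatocyte markers were 137152 to 234588 and 1 of the 8 fell against Vehicle_Normal, as did 404 of all 14086 tested genes. In bulk tissue, fewer cells of a type and less RNA per cell cannot be told apart. The part of array scaling, RNA quality, sex and cell make-up in the differences of the 8 genes was not tested. Without HB replicates 4 and 5, Lect2 differed from Vehicle_Normal by -5.81, Rgn by -8.29, Glul by -1.04 and Tbx3 by 1.92, and all 4 passed, whereas Lgr5 did not (2.02, adjusted p = 0.0947). In Lect2, Rgn and Glul these replicates were the highest HB arrays, so leaving them out could only enlarge the fall.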

How the data were processed

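RNA (10 ng) was amplified and labelled with biotin, per the labels' protocols. The deposited values were linear MAS5 intensity values, per the submitters' processing notes, which give no MAS5 version. Each array had a 2% trimmed mean of 500, as checked on the values. The genome build of the arrays is not given in the sources used here.

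Analysis used log2(intensity + 16). The filter asked that the 6th highest value of a probe set exceed 66.3, the 40th percentile over all arrays, and 32762 of 45101 passed. Gene symbols came from the platform annotation (34945 probe sets with 1 gene, 932 with several, left out). The probe set with the highest mean stood for a gene. HCC replicates 3 and 4 entered as their mean, which gave 23 samples (HCC n = 5, the other groups n = 6). Group means of all 4 groups were fitted together in limma 3.58.1 (R 4.3.3) with an intensity trend. Two-sided p-values were Benjamini-Hochberg adjusted over 14086 genes in each of 6 comparisons. Errors are moderated SEs, and fold changes are on the log2(intensity + 16) scale, which understates changes of dim genes. The number of arrays limits the precision.

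The members, lists and alternatives were chosen with earlier results of these data known. Named besides the members were at most 4 genes per list with the lowest adjusted p in HB against HCC, the 3 closest profiles per member, and Axin2, Alb, Cyp2c54, Asns, Slc1a4, Slc1a5 and Aldh18a1, which were chosen after their values were seen. The fit was tested on simulated data. Alternatives were pseudocounts, scaling, filter, probe sets, variance model, array weights, 24 separate arrays, the 2 groups alone, a replicate block and omitted arrays. Figures used Python 3.11.15 and matplotlib 3.10.9.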

Additional observations from a re-analysis of the deposited data

Results flagged for a closer look

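Single arrays stood apart from their group in 5 of 72 checks of a probe set within a group by Dixon's gap test, where chance gives about 1 in 20. The value given is the gap to the nearest array over the range of the group on the log2 scale. Glul in HB replicate 4 was high (25343, gap 0.654), and so was Lgr5 in Vehicle_Normal replicate 1 (576, gap 0.777). Rgn in BDCA_Normal replicate 1 was low (5657, gap 0.721). Of the dimmer probe sets, Lgr5 1444519_at was low in HB replicate 6 (89.1, gap 0.691), and Tbx3 1439567_at was high in BDCA_Normal replicate 6 (1644, gap 0.676).

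The effect of the tumour against Vehicle_Normal differed between HB and HCC in 7 of the 8 genes, by the limma test of HB against HCC, in which the shared controls drop out. Of all tested genes 50.5% passed that test, so 7 of 8 has to be read against that share. The HB effect minus the HCC effect was -0.70 in Glul, -4.46 in Slc1a2, -2.33 in Rhbg, 2.31 in Lgr5, 2.00 in Tbx3, -4.84 in Lect2 and -5.99 in Rgn on the log2 scale.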

How the results depend on the processing

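The number of the 8 genes called stayed within 1.5 times its reported value under every alternative but one. Without the 5 arrays on which Xist read 10287 or more, 3 genes in place of 6 were called in HB against Vehicle_Normal. Leaving out 1 array at a time gave 4 to 6 in HB against Vehicle_Normal, 5 to 7 in HB against HCC, 5 to 7 in HB against BDCA_Normal, and 0 to 0 in the 3 other comparisons. These counts have to be read against those of all 14086 tested genes. Without 1 array of either group, 8089 to 8384 were called in HB against Vehicle_Normal. It was 6635 to 7144 against HCC and 7502 to 7915 against BDCA_Normal. By its dim probe set 1433094_at, Slc1a2 lost its call in HB against Vehicle_Normal and changed sign (0.16 ± 0.56, adjusted p = 0.824). By that probe set it also lost its calls against HCC (-0.06, adjusted p = 0.946) and BDCA_Normal (-0.79, adjusted p = 0.232). Another 46 alternative values changed sign, and these were not called before or after. Replicate numbers did not pair the samples in general: the same-number correlations of 36 pairs had a median of -0.00, and 2 exceeded 0.1. They ran from -0.12 to 0.50. The highest, 0.50, was that of HCC replicate 1 with BDCA_Normal replicate 1, so these arrays deviated from their groups in a like way. With the replicate block on 24 separate arrays, 5, 6 and 7 genes were called in HB against Vehicle_Normal, HCC and BDCA_Normal, and 0 in each other comparison. Of all 14086 tested genes, that fit called 8510, 7558 and 7996 in the same comparisons of HB. Lgr5 lost its call there against Vehicle_Normal (adjusted p = 0.0507) and HCC (adjusted p = 0.0564). It also lost the call against HCC with 24 separate arrays alone (2.08, adjusted p = 0.0502). Scaling moved the balance of all calls in HB against Vehicle_Normal: 61.7% were higher as deposited, 48.9% with quantile normalization and 46.1% with median centring. The cause of each change was not tested. The alternative without HCC replicates 3 and 4 was chosen after seeing the data. It left 5 genes called in HB against HCC, with Glul (-0.64, adjusted p = 0.0996) and Rhbg (-1.96, adjusted p = 0.0515) lost. Of all 14086 tested genes, 6578 were called there, in place of 7119.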
